A study of Mus musculus with 6 samples.

Results

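Immunoglobulin gene segments were followed in the RNA of donor bone marrow cells recovered from transplanted mice. The members are the genes of the FPKM table (fragments per kilobase of exon and per 1000000 fragments) that the GENCODE M21 annotation of GRCm38 types as constant (C), variable (V), diversity (D) or joining (J) immunoglobulin genes. They number 228 of 24965 genes in the table, against 264 such segments in the annotation: 198 V, 13 C, 12 J and 5 D segments. By locus, 116 lie at Igh, the heavy chain locus on chromosome 12, 102 at Igk, the kappa locus on chromosome 6, and 10 at Igl, the lambda locus on chromosome 16.

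The 3 WT and 3 Hemgn-/- libraries were made from CD45.2+ Lin-Sca-1+ donor cells, which the study treats as hematopoietic stem and progenitor cells (HSPCs). Donor marrow of either genotype was injected into CD45.1+ recipients that had received 9 Gy of irradiation, and the donor cells were sorted 6 h after bone marrow transplantation (BMT). Hemgn-/- is a whole-body knockout on a C57BL/6 background, so donor cells of every type carried the edited allele. The edit is a small deletion in the coding sequence that brings in an early stop codon, and RNA of the edited allele is still counted as Hemgn. The sources call the libraries biological replicates without saying whether animals were pooled, so p-values measure the spread between these libraries.

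An antibody gene is assembled in developing B cells, when recombination signals bring 1 V, in the heavy chain 1 D, and 1 J segment together ahead of a constant region. Mature naive B cells splice the same heavy chain transcript to mu (Ighm) or delta (Ighd), class switching replaces these with gamma, epsilon or alpha constant regions, and plasma cells transcribe the assembled genes at very high levels. Unrearranged HSPCs make little of these transcripts, although some germline V, J and C transcription precedes recombination.

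The libraries held 23668015 to 28897360 fragments as recovered from the steps of the low FPKM values. Hemgn itself was at 5.64, 2.96 and 4.68 FPKM across the WT libraries and 0.755, 0.913 and 1.60 FPKM in the Hemgn-/- libraries. Every WT value was the higher, but since the edited allele can be transcribed, this level alone does not check the genotype. The 9 HSPC markers (Kit, Ly6a, Cd34, Flt3, Hlf, Mecom, Procr, Gata2 and Meis1) summed to only 33.2 to 36.8 FPKM across WT and 39.96 to 44.9 FPKM in Hemgn-/- libraries, while 9 B cell markers summed to 1178 to 1222 and 1443 to 1611 FPKM. Stem cell markers were thus low, and B cell transcripts plentiful, in the libraries of both genotypes. In bulk samples of this kind, fewer cells of a type and less RNA per cell cannot be told apart.

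Igkc ranked in place 5 of all genes by mean FPKM across WT and place 6 in Hemgn-/- libraries. Immunoglobulin segments took 9588 to 10065 FPM (fragments per 1000000 fragments of the library) in WT and 7369 to 8204 in Hemgn-/- libraries, and C segments held 97.1% to 97.5% of them. The groups therefore did not overlap in the total. Of the 164 members that reached 1 FPKM in at least 1 library, 43 differed between the groups at an adjusted p under 0.05 (limma on log2(FPKM + 1), Benjamini-Hochberg over all 13739 genes tested), 10 higher and 33 lower in Hemgn-/- libraries. Of the members called lower, at least Ighv11-2 and Ighv1-37 passed the filter of 1 FPKM only through WT libraries. Over all genes tested, 6.46% were called, 4.37% as higher and 2.09% as lower. The median log2 fold change, Hemgn-/- minus WT throughout, was -0.29 over the members tested and 0.09 over all genes tested. Groups stood apart without overlap for 14 members in the higher direction and 61 in the lower, against 19.2% and 8.18% of all genes. With voom on the recovered fragments, 20 members were called, 5 higher and 15 lower. The count of higher members was 6 with WT replicate 2 left out, 6 with Hemgn-/- replicate 2 left out and 5 with Hemgn-/- replicate 3 left out.

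Among heavy chain constant regions, delta was higher in Hemgn-/- libraries, and alpha, gamma2b and gamma2c were lower, while the heavy chain total overlapped between the groups. Ighd (ENSMUSG00000104213, chr12:113406604-113416324), the delta constant region of mature naive B cells, was at 375, 382 and 388 FPKM across the WT libraries and 820, 751 and 770 FPKM in the Hemgn-/- libraries. Every Hemgn-/- library was above every WT library, and the log2 fold change was 1.03 (SE 0.06, adjusted p = 3.3e-05, limma). Igha (chr12:113254830-113260236), the constant region of IgA, was at 796, 777 and 798 FPKM across WT and 343, 411 and 356 FPKM in Hemgn-/- libraries. The groups lay well apart, with a log2 fold change of -1.10 (SE 0.07, adjusted p = 1.25e-04, limma). Ighg2b (chr12:113302965-113307933), an IgG subclass gene, was at 56.7, 58.9 and 58.9 FPKM across WT and 30.3, 33.8 and 30.0 FPKM in Hemgn-/- libraries (log2 fold change -0.87, adjusted p = 6.0e-04, limma). Ighg2c (chr12:113285325-113288932), the subclass that C57BL/6 mice carry in place of IgG2a, was at 67.4, 59.3 and 61.2 FPKM across WT and 33.1, 35.4 and 43.3 FPKM in Hemgn-/- libraries (log2 fold change -0.74, adjusted p = 0.0060, limma). These 4 genes kept their call under every alternative that was run.

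**Figure D1:**
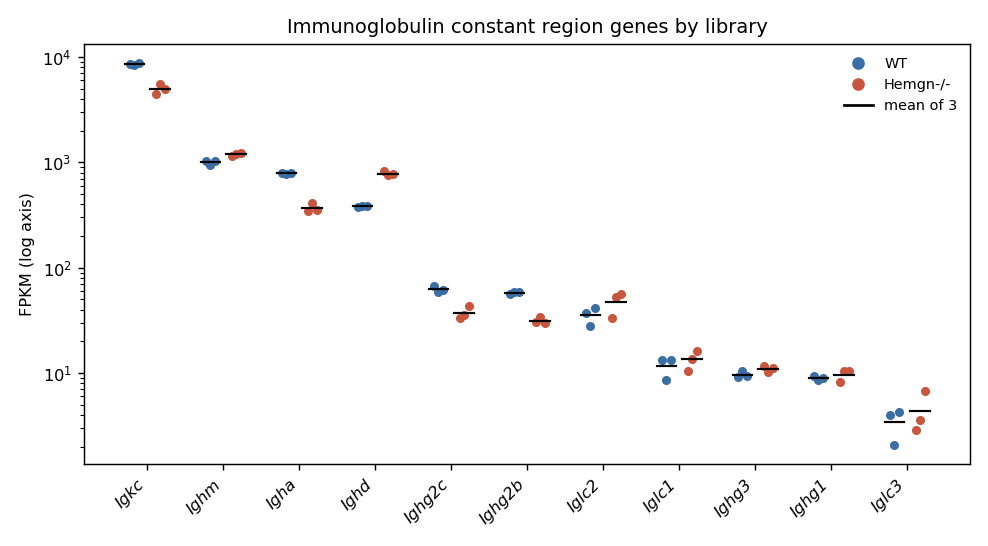
FPKM on a log axis of the 11 constant region genes tested, 1 point per library for WT and Hemgn-/- and a bar at the mean of 3. Igkc, Igha, Ighg2c and Ighg2b points of Hemgn-/- lie below all WT points, Ighd and Ighm points lie above them, and the other genes overlap.

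Ighm (chr12:113418558-113422730), the first constant region used and the class of the naive receptor, was at 1024, 945 and 1024 FPKM across WT and 1137, 1201 and 1227 FPKM in Hemgn-/- libraries. The groups did not overlap, and the log2 fold change was 0.25 (SE 0.06, adjusted p = 0.0407, limma). This call ended without any of the libraries but Hemgn-/- replicate 1 (adjusted p = 0.0783 to 0.170, limma), with median-ratio scaling (adjusted p = 0.198, limma) and with no filter on low values (adjusted p = 0.215, limma). Ighg1 was at 9.00 ± 0.32 FPKM across WT and 9.67 ± 1.27 FPKM in Hemgn-/- libraries, and Ighg3 at 9.66 ± 0.667 and 10.96 ± 0.746 FPKM (SD, n = 3 each). Neither of these IgG subclass genes was called (adjusted p = 0.711 and 0.402, limma). Ighe, the IgE constant region, held 10 fragments over the 6 libraries and was not tested.

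As a share of the summed FPKM of the 8 heavy chain constant regions, delta was at 16.5% ± 0.506 in WT and 32.2% ± 1.98 in Hemgn-/- libraries (SD, n = 3 each). Alpha was at 34.2% ± 0.391 and 15.2% ± 1.32, and the 4 gamma genes together at 6.04% ± 0.123 and 3.68% ± 0.19. Mu was at 43.2% ± 0.91 and 48.9% ± 1.196. The heavy chain constant regions summed to 5055, 4867 and 5085 FPM in WT and 4791, 4979 and 4921 FPM in Hemgn-/- libraries. That sum overlapped between the groups (log2 difference -0.03, exact two-sided permutation p = 0.3). The delta, alpha, gamma and mu shares, which are of summed FPKM and not of FPM, did not overlap.

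**Figure D2:**
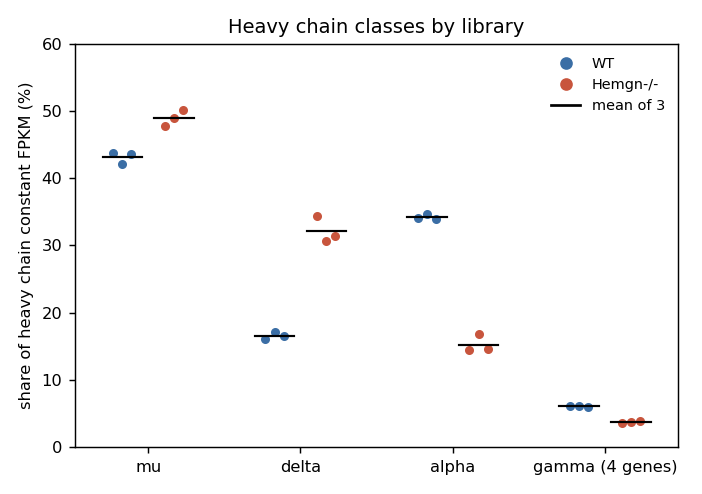
Share of the summed heavy chain constant FPKM (%) for mu, delta, alpha and the 4 gamma genes, 1 point per library and a bar at the mean of 3. Delta lies between 30.6% and 34.4% in Hemgn-/- against 16.04% to 17.05% in WT, and alpha between 14.4% and 16.8% against 34.0% to 34.7%.

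The kappa constant region was lower in Hemgn-/- libraries. Igkc (chr6:70726435-70726966), the single constant gene of the kappa light chain, was at 8519, 8373 and 8752 FPKM across WT and 4418, 5552 and 4925 FPKM in Hemgn-/- libraries. The highest Hemgn-/- library was below the lowest WT library, and the log2 fold change was -0.79 (SE 0.08, adjusted p = 0.0012, limma; 0.0747 with no filter on low values). The lambda constant regions were not called: Iglc2 was at 35.5 ± 6.75 FPKM across WT and 47.2 ± 12.3 FPKM in Hemgn-/- libraries, Iglc1 at 11.7 ± 2.68 and 13.5 ± 2.90 FPKM, and Iglc3 at 3.44 ± 1.19 and 4.40 ± 2.05 FPKM (SD, n = 3 each). The last 290 bases of Iglc2 and Iglc3 are 92.1% identical, and Iglc2 overlaps Iglj2 in the annotation, so how fragments were divided between them is uncertain. Iglc4 held 21 fragments in all and was not tested.

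Ratios within a library need no scaling between libraries. The FPKM ratio of kappa to mu constant region was 8.32, 8.86 and 8.54 in WT and 3.89, 4.62 and 4.01 in Hemgn-/- libraries. The ratio of delta to mu was 0.366, 0.404 and 0.379 in WT and 0.721, 0.626 and 0.627 in Hemgn-/- libraries. Lambda to kappa was 0.00637, 0.00469 and 0.00679 in WT and 0.0106, 0.0126 and 0.0162 in Hemgn-/- libraries. None of these 3 ratios overlapped between the groups. Each had an exact two-sided permutation p = 0.1, the smallest that 3 against 3 can give (0.15 after adjustment over 6 ratios). They share the kappa and mu terms, so they are not separate differences. The lambda constant regions as a sum overlapped between the groups (log2 difference 0.36, exact two-sided permutation p = 0.3). Secreted and membrane forms of a heavy chain share most of their constant exons and are pooled in 1 value per gene here.

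J and D segments were not called in either direction, with 12 J and 5 D segments tested. At an unadjusted p under 0.05, limma gave 1 J and 0 D segments, and voom called 0 J and 0 D segments, with 0 at an unadjusted p under 0.05. The J segments are shown because every assembled chain carries a J segment between V and C. In capitals is the stretch that encodes the conserved tryptophan-glycine or phenylalanine-glycine of J, found by the letters TGGGGNNNNGG for heavy and TTCGGNNNNGG for light chains on either strand. The transcript sequences are those of GENCODE M21 (GRCm38), 5′ to 3′ on the coding strand.
Ighj3 (chr12:113429085-113429132, minus strand): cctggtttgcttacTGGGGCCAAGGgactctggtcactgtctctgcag
Ighj4 (chr12:113428514-113428567, minus strand): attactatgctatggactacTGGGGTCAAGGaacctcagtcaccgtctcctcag
Igkj1 (chr6:70722562-70722599, plus strand): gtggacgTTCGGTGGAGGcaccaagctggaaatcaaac
Igkj3 (chr6:70723223-70723260, plus strand): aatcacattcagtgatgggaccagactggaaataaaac
Igkj4 (chr6:70723548-70723585, plus strand): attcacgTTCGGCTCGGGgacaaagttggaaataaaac
Iglj1 (chr16:19063225-19063262, minus strand): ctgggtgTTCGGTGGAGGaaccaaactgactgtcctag
Iglj3p (chr16:19066371-19066408, minus strand): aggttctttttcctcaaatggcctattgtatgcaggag
The heavy motif was in 33.3% of the J members and 4.55% of the V members, and the light motif in 50% of the J members and 0% of the V members, and 61.5% of the C members also hold the heavy motif. Igkj3 and Iglj3p hold no match to these letters. Ighd1-1 (chr12:113482170-113482192) is the D segment with 104 of the fragments, and the other 4 D segments held at most 4 each.

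Per base, J segments reached high FPKM because they are far shorter than a read pair, so their levels are not set against V or C segments. Ighj4, the J segment with the most heavy chain fragments, was at 94.7, 173 and 122 FPKM across WT and 103, 171 and 104 FPKM in Hemgn-/- libraries. The spread between WT libraries covered the Hemgn-/- libraries. Igkj4, with 61.2% of the kappa J fragments, was at 132, 145 and 213 FPKM across WT and 220, 221 and 185 FPKM in Hemgn-/- libraries (log2 fold change 0.38, adjusted p = 0.227, limma). Its groups overlapped. Igkj3, which lacks the light motif, was at 22.4 ± 16.5 and 30.5 ± 8.82 FPKM (SD, n = 3 each). The kappa J sum was 8.75, 8.40 and 13.9 FPM in WT and 12.5, 13.4 and 12.3 in Hemgn-/- libraries (log2 difference 0.33, exact two-sided permutation p = 0.4). Against the kappa constant region, which fell, the same J fragments made up an FPKM ratio of 0.0261, 0.0259 and 0.0407 in WT and 0.0728, 0.0621 and 0.0637 in Hemgn-/- libraries. These ratios did not overlap (log2 difference 1.12 in fragments, exact two-sided permutation p = 0.1).

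**Figure D3:**
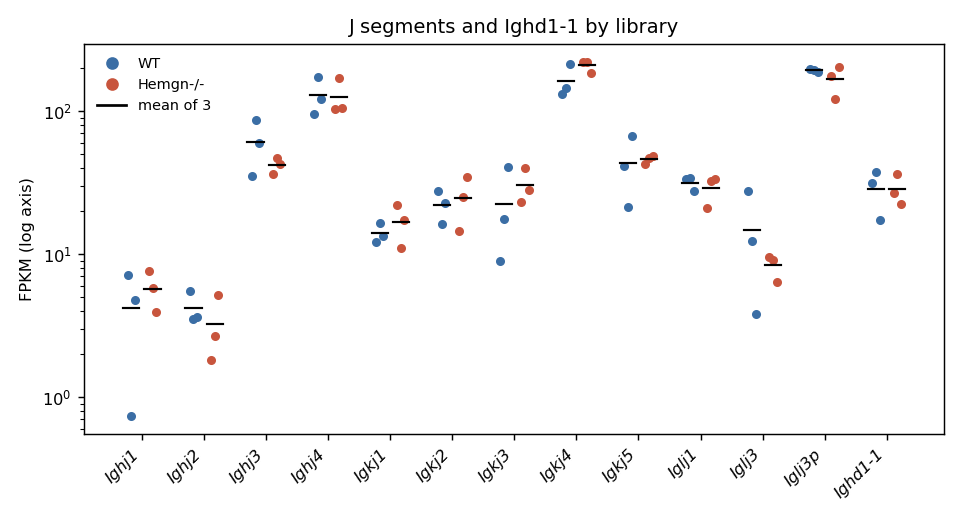
FPKM on a log axis of the 12 J segments and Ighd1-1, 1 point per library and a bar at the mean of 3. WT and Hemgn-/- points overlap for every segment, and Ighj1 falls to 0.737 FPKM in 1 WT library.

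V segments that were called were mostly lower. Of 198 V members, 136 were tested, and 29 were lower and 8 higher in Hemgn-/- libraries, with a median log2 fold change of -0.39. Of all genes tested, 2.09% were called lower and 4.37% higher, so the count of higher V segments was near the share of all genes. Igh V segments gave 16 lower and 4 higher of 68 tested, and Igk V segments 13 lower and 4 higher of 65 tested. In FPM, Igh V segments summed to 122, 109 and 132 in WT and 81.8, 97.3 and 93.4 in Hemgn-/- libraries, and Igk V segments to 114, 91.1 and 114 and to 75.9, 86.1 and 84.3. Both sums stood apart (log2 differences -0.41 and -0.37, exact two-sided permutation p = 0.1 each, 0.25 after adjustment over 10 sums). The 3 Igl V segments went the other way as a sum, with 12.5, 11.4 and 11.6 FPM in WT and 14.4, 15.5 and 15.02 in Hemgn-/- libraries (log2 difference 0.34, exact two-sided permutation p = 0.1). None of the 9 Igl members tested was called by limma or voom, and 1, Iglv1 at 10.01 ± 2.87 and 13.97 ± 0.34 FPKM (SD, n = 3 each), had an unadjusted p under 0.05 in limma.

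**Figure D4:**
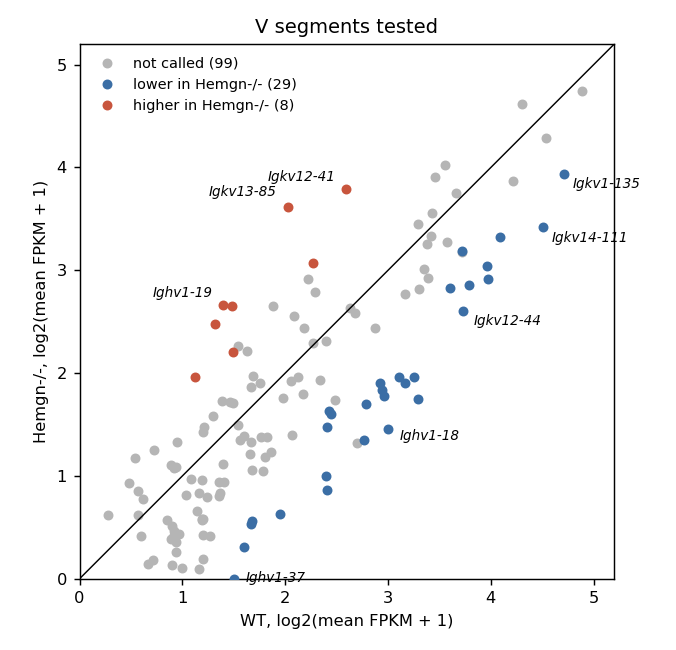
Mean level of the 136 V segments tested, log2(mean FPKM + 1) in WT (x) against Hemgn-/- (y), with the line of equality. The 29 segments called lower lie below the line, from Ighv1-37, at 0 in all Hemgn-/- libraries, to Igkv1-135 at 25.1 FPKM in WT, and the 8 called higher lie above it.

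The most abundant V segments did not all move together. Ighv1-74 (chr12:115802648-115803080), the V segment with the most fragments, was at 27.2, 26.9 and 31.5 FPKM across WT and 26.5, 31.1 and 19.7 FPKM in Hemgn-/- libraries, which overlap (adjusted p = 0.587, limma). Igkv1-135 (chr6:67609713-67610508) was at 22.6, 26.0 and 26.7 FPKM across WT and 12.9, 15.7 and 14.3 FPKM in Hemgn-/- libraries (log2 fold change -0.77, adjusted p = 0.0045, limma). Igkv14-111 (chr6:68256389-68256869) was at 21.7, 18.9 and 24.6 FPKM across WT and 7.72, 10.6 and 10.7 FPKM in Hemgn-/- libraries (log2 fold change -1.10, adjusted p = 0.0040, limma). Igkv9-120, in the same group of 10, was also lower, at 16.3, 13.8 and 17.9 FPKM across WT and 8.05, 8.33 and 10.6 FPKM in Hemgn-/- libraries. The rest of the 10, namely Iglv3, Ighv1-52, Ighv1-81, Iglv1, Igkv10-96 and Igkv4-57, were not called, with log2 fold changes from -0.38 for Ighv1-81 to 0.48 for Iglv1.

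Among the segments that fell, Ighv1-18 (chr12:114682632-114683065) was at 6.98, 7.90 and 6.17 FPKM across WT and 1.45, 1.31 and 2.46 FPKM in Hemgn-/- libraries, a mean 4.03-fold higher in WT (adjusted p = 0.0022, limma). Igkv9-124 (chr6:67942074-67942540) was at 10.5, 6.97 and 8.89 FPKM across WT and 1.45, 3.46 and 2.16 FPKM in Hemgn-/- libraries (log2 fold change -1.57, adjusted p = 0.0057, limma). Igkv14-130 was at 4.32 ± 1.40 and 0.815 ± 0.313 FPKM, and Ighv6-3 at 14.7 ± 1.52 and 6.53 ± 0.656 FPKM (SD, n = 3 each). All 4 kept their call under every alternative. Ighv1-37 (chr12:114896238-114896671) held 19, 18 and 12 fragments in the WT libraries and 0 in each Hemgn-/- library, at least 17.5-fold lower against a floor of 3 fragments over the Hemgn-/- group, for counting error only; its call was lost without WT replicate 1. The other segments called lower were Igkv1-110, Ighv1-26, Ighv5-16, Ighv1-15, Igkv6-23, Ighv1-50, Ighv1-80, Igkv8-30, Ighv1-22, Igkv3-5, Ighv9-4, Ighv1-64, Igkv2-112, Ighv1-5, Ighv5-12, Igkv1-133, Ighv10-1 and Ighv1-53, with Ighv11-2, Igkv12-44 and Igkv12-46 described below. The smallest change in the 29 was a log2 fold change of -0.54, in Ighv1-53.

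Ighv11-2 (chr12:114048241-114048812) is a V segment known from B-1a cells, which use it for antibodies to phosphatidylcholine. It was at 3.02, 2.29 and 3.29 FPKM across WT and 0.711, 0.414 and 0.526 FPKM in Hemgn-/- libraries (log2 fold change -1.31, SE 0.18, adjusted p = 0.0048, limma). It was tested only because the WT libraries passed the filter of 1 FPKM. Its nearest neighbour, Ighv11-1, is 98.6% identical over the last 290 bases and held 3 fragments in all. The other segments of the known phosphatidylcholine pairs were chosen after the values were seen. Igkv14-126, the kappa partner of Ighv11-2, was tested and not called, at 1.65, 0.437 and 1.51 FPKM across WT and 1.02, 0.427 and 0.290 FPKM in Hemgn-/- libraries. Ighv12-3 held 0 fragments in each WT library and 1, 6 and 4 in the Hemgn-/- libraries, which do not overlap, and was not tested because it never reached 1 FPKM. Igkv4-91, its partner, was at 4.07 ± 0.866 and 2.82 ± 0.25 FPKM (SD, n = 3 each) and was not called.

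Of the 8 V segments that rose, Igkv13-85 (chr6:68930269-68930734) changed most. It held 23, 30 and 29 fragments across WT and 105, 110 and 107 fragments in Hemgn-/- libraries, or 2.80, 3.38 and 3.02 FPKM against 11.03, 12.1 and 10.7 FPKM. The lowest Hemgn-/- library was over every WT library, with a log2 fold change of 1.59 (SE 0.11, adjusted p = 1.4e-04, limma), and the call held under every alternative. Igkv13-84 (chr6:68939602-68940067), its neighbour in the locus on the opposite strand, was at 7.18, 6.98 and 12.2 FPKM across WT and 10.2, 10.7 and 8.88 FPKM in Hemgn-/- libraries (adjusted p = 0.596, limma). The last 290 bases of both are shown because they differ at only 8 positions, in capitals, none of them beyond position 97 of this stretch, so a fragment from the 3′ part cannot be assigned to either.
Igkv13-84: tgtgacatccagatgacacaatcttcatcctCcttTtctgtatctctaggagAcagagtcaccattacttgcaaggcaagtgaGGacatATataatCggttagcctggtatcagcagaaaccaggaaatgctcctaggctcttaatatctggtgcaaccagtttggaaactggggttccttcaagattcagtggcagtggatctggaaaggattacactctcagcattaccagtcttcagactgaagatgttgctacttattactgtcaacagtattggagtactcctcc
Igkv13-85: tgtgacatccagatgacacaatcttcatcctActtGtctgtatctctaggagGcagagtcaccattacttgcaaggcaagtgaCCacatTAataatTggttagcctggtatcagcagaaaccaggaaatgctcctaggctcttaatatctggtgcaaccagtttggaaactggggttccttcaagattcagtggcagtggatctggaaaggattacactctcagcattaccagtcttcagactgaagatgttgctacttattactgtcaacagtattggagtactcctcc

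Ighv1-19 (chr12:114708648-114709135) was at 1.56, 1.74 and 1.60 FPKM across WT and 5.49, 5.94 and 4.61 FPKM in Hemgn-/- libraries (log2 fold change 1.26, adjusted p = 0.0017, limma). It is 96.2% identical over its last 290 bases to Ighv1-26, which fell from 4.27 ± 1.29 to 1.00 ± 0.032 FPKM (SD, n = 3 each). Ighv14-4 rose from 1.79 ± 0.422 to 5.30 ± 0.489 FPKM and Igkv16-104 from 1.49 ± 0.542 to 4.57 ± 0.468 FPKM (SD, n = 3 each), calls that voom did not make. Ighv1-59 and Ighv1-12 were called in the reported test and in a minority of the alternatives, with log2 fold changes of 0.81 and 0.70.

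Members of 1 family could move in opposite directions. In Igkv12, 2 of the 5 segments tested rose and 2 fell. Igkv12-41 (chr6:69858420-69858884) was at 4.87, 3.38 and 6.86 FPKM across WT and 12.7, 11.2 and 14.7 FPKM in Hemgn-/- libraries (log2 fold change 1.23, adjusted p = 0.0100, limma; lost without Hemgn-/- replicate 3). Igkv12-44 (chr6:69814631-69815154) was at 15.1, 9.65 and 12.1 FPKM across WT and 4.73, 5.62 and 4.92 FPKM in Hemgn-/- libraries (log2 fold change -1.11, adjusted p = 0.0052, limma). These segments are 95.5% identical over their last 290 bases. Igkv12-38 (chr6:69943186-69943648) was at 1.17 ± 0.36 and 2.89 ± 0.177 FPKM and Igkv12-46 (chr6:69764523-69765022) at 14.6 ± 2.61 and 7.24 ± 1.76 FPKM (SD, n = 3 each); both calls were lost in more than 1 leave-one-out fit. The last 70 bases of the 4 are shown because this end carries the cysteine codon and the germline start of the third antigen contact loop, and the capitals mark the 21 positions at which the 4 are not all alike.
Igkv12-38: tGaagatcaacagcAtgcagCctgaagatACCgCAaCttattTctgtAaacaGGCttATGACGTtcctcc
Igkv12-41: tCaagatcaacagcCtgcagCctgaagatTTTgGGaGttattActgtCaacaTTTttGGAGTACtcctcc
Igkv12-44: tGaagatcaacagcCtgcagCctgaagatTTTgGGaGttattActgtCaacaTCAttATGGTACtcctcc
Igkv12-46: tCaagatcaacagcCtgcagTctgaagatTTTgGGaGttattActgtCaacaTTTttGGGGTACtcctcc

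In the largest heavy chain family, Ighv1, 10 of 35 segments tested were lower and 3 higher. Of 198 V members, 101 are at least 95% identical to another V member over the last 290 bases, and 25 of the 37 called V members are. Over windows of 75 bases, the called V members had a median of 91.0% of windows found in no other immunoglobulin transcript of the annotation, with a lowest value of 56.4%. At Igh, V segments lower in Hemgn-/- libraries lay between 272 and 2483 kb from the J segments (median 1240 kb), and those not called between 158 and 2570 kb (median 1238 kb). At Igk the 13 lower segments had a median distance of 2466 kb and the 48 not called a median of 1162 kb. The lower ones lay at 58.7 to 957.5 kb and at 2451 to 3112 kb, with none between these stretches. Beyond 2400 kb, a limit chosen after the values were seen, lay 8 of the 13 and 7 of the 48, which is a description without a test.

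**Figure D5:**
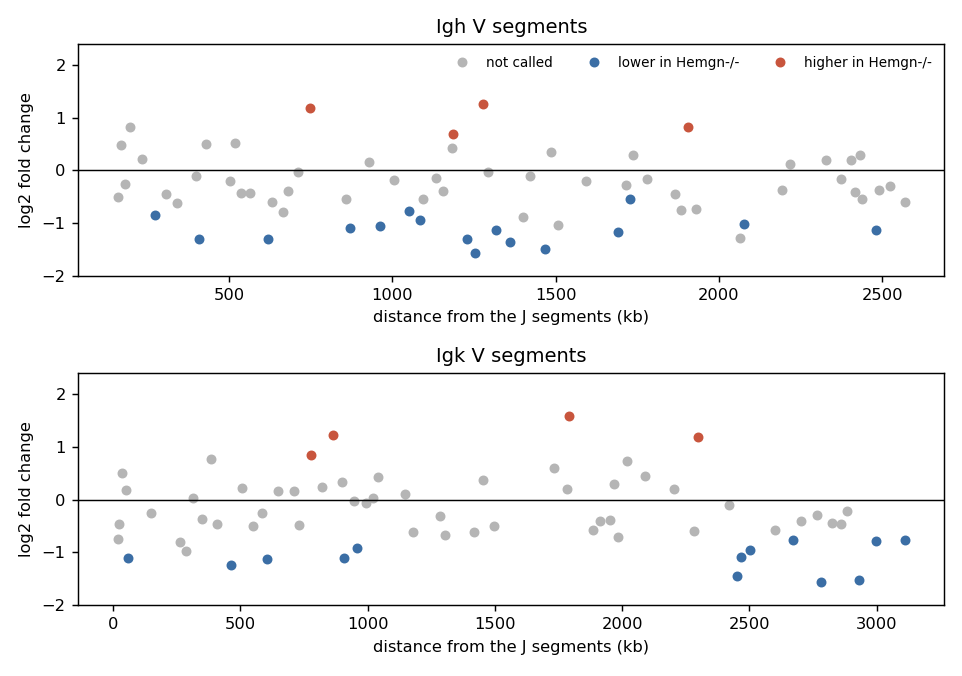
Log2 fold change (Hemgn-/- minus WT) of each V segment tested against its distance in kb from the J segments, for Igh (top) and Igk (bottom). Segments called lower lie between 272 and 2483 kb at Igh and at 58.7 to 957.5 and 2451 to 3112 kb at Igk, and segments called higher between 747 and 1905 kb and between 779 and 2297 kb.

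The use of V segments was closer within groups than between them, as were the proportions of all genes. For Igk V segments with at least 20 fragments in a pair of libraries, the chi-square per degree of freedom was 2.07 to 3.13 between WT libraries, 1.99 to 3.09 between Hemgn-/- libraries and 10.0 to 11.8 between groups. For Igh V segments it was 1.22 to 1.70, 2.23 to 3.43 and 5.56 to 8.87. Sampling alone gives a value near 1. Over all genes the same measure was 16.3 to 31.4 between WT libraries, 17.1 to 24.6 between Hemgn-/- libraries, and 55.6 to 84.1 between groups. The measure grows with the fragments per gene, so its size is not compared between sets of genes.

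Genes that act on or with immunoglobulin were counted in 5 lists, against 4.37% called higher and 2.09% called lower over all genes tested. Of 11 tested in the list of surrogate light chain and receptor signalling, 4 rose, namely Cd79b, Blk, Btk and Lyn, and the median log2 fold change of the list was 0.10 against 0.09 over all genes tested. Cd79b, a signalling partner of membrane immunoglobulin, went from 487 ± 9.29 to 589 ± 36.9 FPKM and Lyn, a kinase that phosphorylates that partner, from 111 ± 8.39 to 142 ± 3.92 FPKM (SD, n = 3 each). Cd79a, the other signalling partner, was at 420 ± 12.3 and 493 ± 59.5 FPKM and was not called. Of 12 B lineage factors, 4 rose (Spib, Pou2af1, Pou2f2 and Id3), and the median of the list was 0.23. Spib was at 145 ± 14.8 and 232 ± 17.8 FPKM (SD, n = 3 each). Pou2af1, a coactivator at octamer sites of immunoglobulin promoters, was at 132 ± 10.0 and 174 ± 8.03 FPKM (SD, n = 3 each). The rest of the B lineage list was not called, with log2 fold changes from -0.49 for Tcf3 to 0.45 for Pax5. Of 9 receptors of secreted immunoglobulin, 1 rose: Fcmr, the IgM receptor, from 202 ± 8.18 to 320 ± 10.1 FPKM (SD, n = 3 each; median of the list 0.15). Over the 5 lists, 10 genes were higher and 4 lower, and the total of 14 was 6 with WT replicate 1 left out, 5 with WT replicate 3 left out, 7 with Hemgn-/- replicate 2 left out, 4 with Hemgn-/- replicate 3 left out and 8 with median-ratio scaling.

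In the list of plasma cell and secretion genes, 2 of 9 tested fell and 1 rose (median log2 fold change -0.22). Calls over all genes were 4.37% higher and 2.09% lower. The gene that rose, Tnfrsf13b, is not among the 6 plasma cell markers, of which 0 were called higher and 2 lower. Jchain, which joins IgA and IgM into polymers, was at 634, 580 and 696 FPKM across WT and 313, 284 and 278 FPKM in Hemgn-/- libraries (log2 fold change -1.12, SE 0.08, adjusted p = 1.5e-04, limma). Its groups stood far apart. Tnfrsf17, a survival receptor of plasma cells, fell from 1.80 ± 0.0529 to 0.331 ± 0.16 FPKM, and Tnfrsf13b, a receptor of activated and marginal zone B cells, rose from 52.1 ± 1.99 to 73.7 ± 7.78 FPKM (SD, n = 3 each). Tnfrsf17 passed the filter of 1 FPKM only through WT libraries. Xbp1 (113 ± 8.06 and 96.4 ± 6.33 FPKM), Mzb1 (81.0 ± 2.69 and 76.2 ± 9.83 FPKM) and Sdc1 (13.4 ± 1.71 and 13.1 ± 1.23 FPKM; SD, n = 3 each), also plasma cell genes, were not called.

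Of 12 recombination genes tested, 2 changed, both lower: Nhej1, an end-joining factor, from 17.4 ± 1.14 to 10.7 ± 1.93 FPKM and Hmgb2, a chromatin protein that is also a cofactor of the recombinase, from 323 ± 19.7 to 237 ± 10.4 FPKM (SD, n = 3 each; median of the list 0.03). Of all genes tested, 2.09% were called lower. Rag1, a subunit of the recombinase, was at 6.34, 4.89 and 4.10 FPKM across WT and 3.82, 3.26 and 3.89 FPKM in Hemgn-/- libraries (adjusted p = 0.209, limma).

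T cell receptor segments, typed in the same way by the annotation, gave 4 higher and 1 lower of 63 tested, with a median log2 fold change of 0.32. These counts are near the shares of all genes tested, of which 4.37% were called higher and 2.09% lower. Those higher were Trbc1, a beta constant region, and Trbj1-1, Trbj1-2 and Trbj1-7 of its J cluster. Traj37, with 6 fragments in all, was the one called lower, and it passed the filter only through WT libraries. No difference between the receptor families was tested.

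Markers of other cells also moved with genotype, and their part in the immunoglobulin results was not tested. The counts called below stand against 4.37% higher and 2.09% lower over all genes tested. Of 9 B cell markers, 5 were higher in Hemgn-/- libraries. Fcer2a, a marker of mature follicular B cells, changed most of them, at 79.7 ± 5.17 and 158 ± 2.80 FPKM (SD, n = 3 each). Ms4a1, Cd79b, Cd22 and Ptprc were also higher, and Cd79a, Pax5, Cr2 and Ebf1 were not called. The 6 plasma cell markers summed to 782 to 913 FPKM across WT and 471 to 494 FPKM in Hemgn-/- libraries, with 2 of 6 lower. Most of that sum, and of its fall, was Jchain, at 637 ± 58.1 and 292 ± 18.7 FPKM (SD, n = 3 each). Sdc1, Prdm1, Xbp1 and Mzb1 were not called. Plasmacytoid dendritic cell markers, some shared with B cells, summed to 343 to 346 and 446 to 521 FPKM (4 of 9 higher), and T and NK cell markers to 124 to 136 and 160 to 161 FPKM (2 of 8 higher). Erythroid markers summed to 445 to 533 FPKM across WT and 24.9 to 40.5 FPKM in Hemgn-/- libraries (3 of 5 lower), and neutrophil markers to 26960 to 30720 and 18930 to 23160 FPKM (4 of 6 lower). No gene in the table was at 0 in all 6 libraries, so the same held for every marker counted.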

How the data were processed

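RNA-seq values of 3 WT and 3 Hemgn-/- libraries were used as the authors deposited them, as FPKM for 24965 genes. The submitters' processing notes name Bowtie2 2.2.3, HISAT2 2.1.0, TopHat2, HTSeq 0.6.0 and GRCm38; the annotation, the strand setting and the treatment of fragments that overlap 2 genes are not given in the sources used here. Spliced fragments that join V, J and C exons may therefore be missing from or unevenly shared among the members. The paper's methods describe Smart-Seq2 libraries of LSK cells, and the labels TruSeq libraries of Lin-Sca-1+ cells.

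Gene types, exon lengths and sequences came from GENCODE M21, which matched 24921 gene IDs. The fragments behind each value were recovered from the FPKM steps: 12892 of 13472 genes with at most 100 fragments were whole within 0.05 in every library, as were all 188 such members. Genes above 1 FPKM in at least 1 library were compared as log2(FPKM + 1), which understates changes of low genes, with limma 3.58.1 (R 4.3.3; mean-variance trend, no covariate, Benjamini-Hochberg adjustment, threshold 0.05). Sums and ratios were compared on the log2 scale with exact permutation tests. Other code ran in Python 3.11.15. The procedure was tested on simulated data in which only genes above set levels of FPKM and fragments were changed. That test does not cover segments with few fragments. Alternatives covered the pseudocount, the filter, scaling, voom on recovered fragments, the replicate block and leaving out each library. Floors and fragment counts cover counting error only.

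Named members are all C genes, all called segments, the 10 V segments with most fragments, J and D segments with at least 10 fragments, and at most 6 genes per list by mean FPKM. Pou2f2, Tnfrsf17, Rag1, Igkv13-84, Ighv11-1, Fcer2a, the T cell receptor segments and the partners of Ighv11-2 were named after their values were seen. The members and lists were chosen with earlier results of these data known. Of the lists and cell type markers, 2 genes are not reported here.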

Additional observations from a re-analysis of the deposited data

How the results depend on the processing

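All 43 called members kept their direction in every alternative run, and 13 of them kept their call in every planned one. The count of 43 was 20 with voom on recovered fragments (5 higher, 15 lower), 5 members were higher with no filter on low values, and leaving out 1 library gave 34 to 40 members in all, 5 to 9 higher and 26 to 34 lower. Genes of the 5 lists called numbered 8 with no filter (5 higher) and 8 with median-ratio scaling (4 higher), and 4 to 11 in leave-one-out fits (2 to 8 higher, 2 to 4 lower). T cell receptor segments called numbered 3 with no filter and 1 with voom (1 higher); the count lower was 0 with no filter, with a mean FPKM of at least 1, with voom and with the replicate block, and 0 to 1 in leave-one-out fits. Replicate numbers showed no sign of pairing: same-numbered libraries correlated at -0.043, -0.009 and 0.011 in their deviations. Such values cannot tell whether the libraries were paired when they were made. With the replicate block, 39 members were called. Only values that were not called changed sign. On the log2 scale, median-ratio scaling put Ighg1 at -0.0076, Ighd1-1 at -0.0563 and Igkj2 at -0.0064, and the same total put Ighj4 at 0.0465. Leaving out 1 library at a time spanned -0.128 to 0.302 for the Igh D sum, -0.350 to 0.0697 for the Igh J sum, -0.330 to 0.121 for the Igh ratio of J to C, -0.272 to 0.264 for Ighd1-1, -0.282 to 0.185 for Ighj4, -0.0611 to 1.06 for Ighj1, -0.304 to 0.0121 for Ighv1-74, -0.0031 to 0.464 for Igkj1, -0.185 to 0.419 for Igkj2, -0.188 to 0.614 for Igkj5, -0.0365 to 0.457 for Iglc3, -0.262 to 0.0631 for Iglj1 and -1.09 to 0.205 for Iglj3. The cause of these changes was not tested. At these depths, segments with few fragments, most D segments among them, allow no statement on a difference.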

Other observations

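The annotation also types segments as immunoglobulin pseudogenes, which are not members. The table holds 61 of them, 27 with at least 10 fragments over the 6 libraries. Together they held 13.2, 12.3 and 10.9 FPM (fragments per 1000000 fragments of the library) in the WT libraries and 11.4, 12.95 and 11.7 in the Hemgn-/- libraries, so the groups overlapped. Ighv1-83 held the most, with 91, 99 and 114 fragments in WT and 66, 96 and 56 in Hemgn-/- libraries. Igkv2-116 held 0, 11 and 13 fragments in WT and 32, 35 and 33 in Hemgn-/- libraries. The limma fit over all genes took in the pseudogenes above 1 FPKM, but its results for them are not given here. Their sum was not tested.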
